A study of Mus musculus with 2 samples.

Results

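Far intergenic accessible regions are described here: stretches of open chromatin that lay in no annotated gene and whose centre was over 100 kb from every protein-coding transcription start site (TSS) of GENCODE M21 on mm10. The submitters mapped them by DNase I-seq in whole thymus tissue of male B6CASTF1/J mice aged 2 months, the offspring of C57BL/6J and CAST/EiJ parents, in 1 group of 2 samples. The labels number 2 animals, called replicate 1 and replicate 2 here, under the same donor identifier, so the spread between them may be in part technical. Regions were built from the stricter of the peak lists deposited for each sample: peaks that overlapped by at least 1 bp between the replicates were merged, which gave 51709 shared regions. Of these, 1752 met the rule (3.39%, 95% Wilson interval 3.24 to 3.55%). The others were 10980 regions in other intergenic sequence, 16761 in genes and 22216 within 1 kb of a TSS. All classes were drawn from shared strict peaks and were separated by position alone. The requirement that a peak be shared favours high scores, so the levels of scores, widths and footprints below hold for shared strict peaks and are not independent of that step. With 1 group and 2 samples no test between conditions exists, and regions are not replicates, so the comparisons below are descriptions with counting intervals.

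DNase I cuts DNA where nucleosomes have been displaced, which marks promoters, enhancers and the sites of the zinc finger protein CTCF. Within such a region a bound protein can shield a few bases from the enzyme, and these uncut bases are called a footprint. Enhancers can act on genes over long distances, and genes for developmental regulators often stand beside long stretches with no other gene. CTCF reads its motif in 1 direction and, with the cohesin ring, anchors chromatin loops. Most cells of the thymus are developing T cells, which assemble their receptor genes by joining V segments that lie in long arrays. The promoters of Cd3e, Cd3g, Cd4, Cd8a, Rag1, Lck and Themis were all accessible, with scores between 1.76 (Cd4, replicate 2) and 11.6 (Lck, replicate 1).

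The sequences below are the highest scoring member of each of the 6 densest runs of far intergenic regions described further on. Densest means the most members here. The sequences are given so that the elements the results turn on can be read. They come from GRCm38.p6, the reference of the mm10 coordinates, plus strand, 5′ to 3′, with bases under a footprint of both replicates in capitals. Where a region was longer than 300 bases, the 300 bases with the most footprint bases are given.
Between Vrk1 and 3110018I06Rik, chr12:107124261-107124560: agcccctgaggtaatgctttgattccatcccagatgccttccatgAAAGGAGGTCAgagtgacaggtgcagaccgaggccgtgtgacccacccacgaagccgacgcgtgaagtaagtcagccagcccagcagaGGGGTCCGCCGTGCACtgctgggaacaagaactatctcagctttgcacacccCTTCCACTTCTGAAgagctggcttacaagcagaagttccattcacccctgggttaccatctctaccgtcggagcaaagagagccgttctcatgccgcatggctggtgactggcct
Between Foxo1 and Cog6, chr3:52396394-52396693: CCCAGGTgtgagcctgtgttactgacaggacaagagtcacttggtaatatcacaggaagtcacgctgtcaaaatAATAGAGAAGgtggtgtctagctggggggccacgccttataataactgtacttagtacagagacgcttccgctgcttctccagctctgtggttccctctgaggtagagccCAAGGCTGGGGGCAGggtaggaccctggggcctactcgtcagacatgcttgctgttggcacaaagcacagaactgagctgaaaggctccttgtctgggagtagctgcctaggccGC
Igh V array, 392 kb from Zfp386, chr12:115655881-115656080: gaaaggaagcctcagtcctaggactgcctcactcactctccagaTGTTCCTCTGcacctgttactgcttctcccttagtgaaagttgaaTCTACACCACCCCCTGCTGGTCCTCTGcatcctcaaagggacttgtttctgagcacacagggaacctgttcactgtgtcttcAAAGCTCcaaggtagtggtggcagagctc
Igh V array, 514 kb from Zfp386, chr12:115533221-115533400: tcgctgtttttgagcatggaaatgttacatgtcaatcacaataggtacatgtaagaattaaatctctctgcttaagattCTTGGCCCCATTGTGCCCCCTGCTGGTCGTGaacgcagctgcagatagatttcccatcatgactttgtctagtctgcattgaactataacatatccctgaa
Between Tgfbr2 and Rbms3, chr9:116384321-116384520: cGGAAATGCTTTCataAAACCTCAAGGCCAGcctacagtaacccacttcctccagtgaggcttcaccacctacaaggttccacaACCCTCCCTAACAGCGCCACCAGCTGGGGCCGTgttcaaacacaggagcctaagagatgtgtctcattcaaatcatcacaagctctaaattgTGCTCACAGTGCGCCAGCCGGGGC
Between Uaca and Tle3, chr9:61186959-61187258: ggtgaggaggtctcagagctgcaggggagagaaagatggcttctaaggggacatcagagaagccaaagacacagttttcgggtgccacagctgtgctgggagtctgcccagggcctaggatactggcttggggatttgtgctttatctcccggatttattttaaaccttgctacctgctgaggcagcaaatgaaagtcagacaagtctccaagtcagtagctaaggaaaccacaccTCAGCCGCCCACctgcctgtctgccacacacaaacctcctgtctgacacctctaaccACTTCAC
The Igh V member 514 kb from Zfp386 held a CTCF match on the minus strand, inside its run of capitals. The member between Foxo1 and Cog6 and that between Uaca and Tle3 held a RUNX word, TGTGGT on either strand. All 6 held an E-box, CAGCTG or CAGGTG.

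The next set shows the CTCF matches of the 6 highest scoring members with a match in which at least 90% of the 31-base words occur once in the genome. Each is read 5′ to 3′ on the strand of the match, with 10 bases on either side and the 12 matched bases in capitals.
Minus strand, in the Igh V array, chr12:114587424-114587455: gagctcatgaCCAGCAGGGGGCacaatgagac
Minus strand, nearest coding gene Ccdc54, chr16:50736952-50736983: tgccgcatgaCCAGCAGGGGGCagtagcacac
Plus strand, nearest coding gene Pcmtd1, chr1:7398375-7398406: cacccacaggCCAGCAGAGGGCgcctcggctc
Plus strand, nearest coding gene Zxdb, chrX:94865723-94865754: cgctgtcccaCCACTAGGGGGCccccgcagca
Plus strand, nearest coding gene Bmp7, chr2:172831262-172831293: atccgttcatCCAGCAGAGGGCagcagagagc
Plus strand, nearest coding gene Clvs1, chr4:9135958-9135989: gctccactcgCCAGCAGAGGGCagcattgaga
All 6 matches lay in a footprint of both replicates.

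Far intergenic regions were the least accessible of the 4 classes. The score is the submitters' signal value, a depth-scaled count whose scale factor is not stated. Its median was 1.10 in replicate 1 and 1.07 in replicate 2 in far intergenic regions. In other intergenic regions it was 1.53 and 1.54, in genes 1.46 and 1.39, and within 1 kb of a TSS 3.66 and 2.83. The class ranges overlapped widely, since the quartiles of far intergenic scores ran from 0.674 to 1.88 in replicate 1 and from 0.711 to 1.75 in replicate 2. Of the far intergenic regions, 48.1% fell in the lowest quartile of all shared regions by mean score and 5.99% in the highest. In a whole tissue, fewer cells with an open region and less cutting per cell cannot be told apart.

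**Figure D1:**
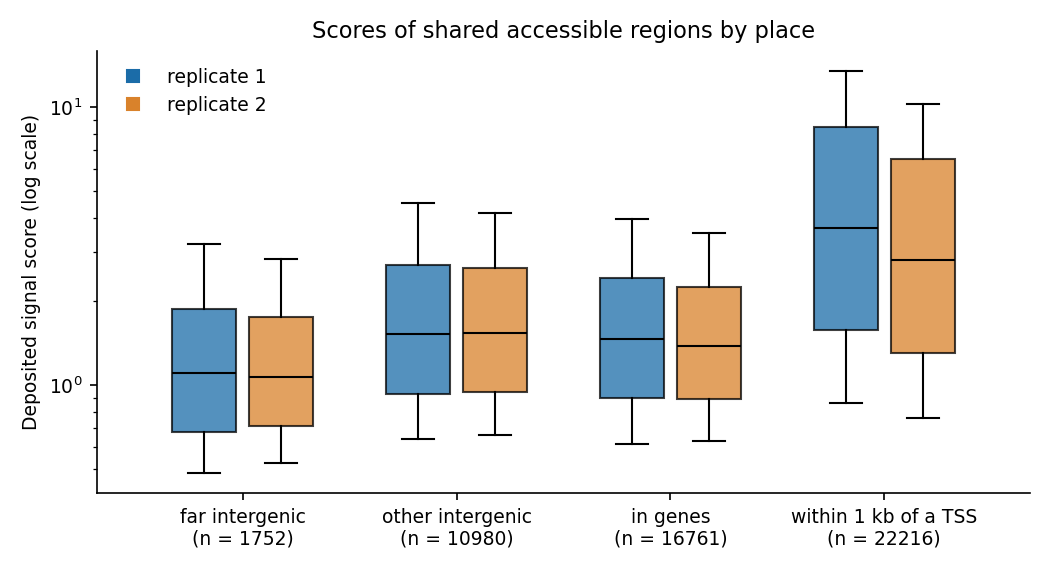
Deposited signal score (log axis) of shared regions in far intergenic, other intergenic and genic sequence and within 1 kb of a TSS, in replicate 1 (blue) and replicate 2 (orange). Boxes give quartiles and the median, and whiskers the 10th and 90th percentiles over regions. Far intergenic medians of 1.10 and 1.07 are the lowest of the 4 classes in both replicates.

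Scores of the same far intergenic region differed between the replicates by a median of -0.08 on the log2 scale, replicate 2 minus replicate 1, and the SD over regions was 0.52. Across the 1752 regions, Pearson's r of the log2 scores was 0.878 and Spearman's rho 0.848, against 0.944 and 0.928 over all shared regions, as a description of regions that share libraries. The other distal classes were nearer, with 0.881 and 0.862 in genes and 0.895 and 0.881 in other intergenic regions. Within 1 kb of a TSS the values were 0.970 and 0.972. Far intergenic peaks of a replicate overlapped a peak of the other in 78.9% of 2239 cases for replicate 1 and in 72.9% of 2475 for replicate 2. For peaks of all classes these shares were 83.8% and 79.8%. In the highest score quartile, 100% of 152 and 99.4% of 170 far intergenic peaks were shared, and in the lowest quartile 63.8% of 997 and 48.7% of 1129. Peaks of all classes were shared in 99.7% and 98.3% of cases in the highest quartile and in 58.2% and 47.5% in the lowest. Nearly all strong peaks, far intergenic or not, were thus found in both replicates. At like scores far intergenic peaks were shared about as often as peaks of all classes or more often. Far intergenic peaks of 1 replicate alone were mostly weak.

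Scores of intergenic regions were lower with distance. In replicate 1 the median was 1.71 at 1 to 10 kb from the nearest protein-coding TSS, 1.52 at 10 to 50 kb, 1.27 at 50 to 100 kb, 1.13 at 100 to 200 kb and 1.13 at 200 to 500 kb. It was 0.874 among the 97 regions at 500 to 1000 kb and 0.763 among the 21 beyond 1000 kb. Replicate 2 gave the same order up to 100 kb, with 1.08 and 1.11 between 100 and 500 kb and 0.893 and 1.09 in the last 2 bands. Without the V segment arrays described below, the medians were 0.763 and 0.775 for 58 regions at 500 to 1000 kb and 0.474 and 0.644 for 11 regions beyond 1000 kb, so the higher value of replicate 2 in the last band was not seen without them. The change was therefore gradual across the 100 kb limit. The 3 members just over the limit, at 100007, 100110 and 100216 bp, had mean scores of 1.04, 3.90 and 1.56. The 3 regions in no gene just under it, at 99997, 99988 and 99734 bp, had 0.840, 0.927 and 1.16.

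**Figure D2:**
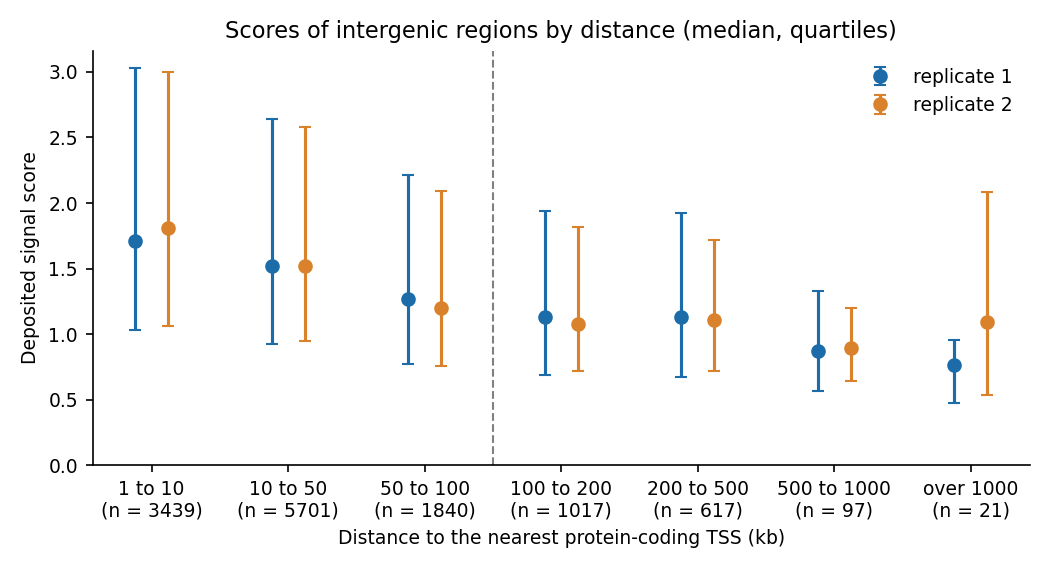
Deposited signal score of shared intergenic regions against distance to the nearest protein-coding TSS in kb, as median (points) with quartiles (bars) over regions, in replicate 1 (blue) and replicate 2 (orange). The dashed line is the 100 kb limit; medians in replicate 1 run from 1.71 nearest the TSS to 0.763 beyond 1000 kb.

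The median distance of a member from the nearest protein-coding TSS was 177 kb and the quartiles 131 and 277 kb. The farthest 3 members were chr1:102628161-102628340, 2140.3 kb from a TSS of Cdh20 (a cadherin), chr14:90295541-90295741, 1824 kb from Pcdh20 (a protocadherin), and chr1:101902721-101903041, 1650.2 kb from Cntnap5b (a neuronal adhesion gene). The first scored 8.19 in replicate 1 and 7.65 in replicate 2, the second 0.430 and 0.468, and the third 0.474 and 0.438. The 31-base words of these 3 that occur once in the genome made up 59.3%, 36.3% and 7.90%, and the last 2 were wholly repeat-masked.

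Far intergenic regions were narrow, with a median of 200 bp and quartiles of 180 and 269 bp, the same median as in other intergenic sequence and in genes and below the 260 bp near TSSs. Regions over 400 bp made up 8.62% of far intergenic regions and 21.3% of those near TSSs. The widest 3 spanned 1020 bp (chr4:71291201-71292220), 920 bp (chr1:91658981-91659900) and 847 bp (chr12:107124801-107125647), the last in the densest run. The peak of this last region was 180 bp wide in replicate 1 and 847 bp in replicate 2, and it held no footprint in either. The median GC content of far intergenic regions was 50.9%, against 62.8% within 1 kb of a TSS.

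The share of regions with a footprint was about as high far from genes as elsewhere, but the mean number of footprints was lower. A footprint of each replicate lay in 1659 of the 1752 far intergenic regions (94.7%, 93.5 to 95.7%), against a background of 92.1% over all shared regions, and 22 had none in either replicate. The background includes regions near TSSs, and in other intergenic regions the share was 95.04%. Among regions in the lowest score quartile it was 91.0% (88.9 to 92.7%) of 843 far intergenic regions, against 87.8% (86.6 to 88.9%) of other intergenic regions. Far intergenic regions held 3.06 footprints on average in replicate 1 and 3.16 in replicate 2, against 3.24 and 3.42 in other intergenic regions. In genes the means were 3.16 and 3.28, and in the wider regions near TSSs 4.62 and 4.61. Footprints found in both replicates averaged 1.76, against 2.11 in other intergenic regions and 1.92 in genes. In the lowest score quartile these means were close, at 1.25, 1.24 and 1.19. Long footprints were scarcer: those of at least 30 bp made up 6.63% of 5356 far intergenic footprints in replicate 1 and 8.95% of 5530 in replicate 2, against 11.4% and 14.1% in other intergenic regions.

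The member with the most footprints was chr5:118359721-118360340, 620 bp wide and 115 kb from a TSS of 2410131K14Rik. It held 13 footprints found in both replicates and scored 6.50 and 3.67. Next was chr7:39655221-39655600 near Zfp619 with 8, with 93.9% of its bases repeat-masked and 12.9% of its words unique. The third, chr1:7398061-7398420 with 7, also held the CTCF match shown above near Pcmtd1 and lay 192 bp from the TSS of the lincRNA Gm26901.

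Several of the highest members lay beside TSSs that the rule does not count. The highest, chr3:5860361-5860530, scored 44.0 in replicate 1 and 22.1 in replicate 2 (33.0 ± 15.5, SD, n = 2), but none of its 31-base words was unique in the genome. The second, chr8:20122141-20122320 (19.2 ± 1.48), had 29.3% unique words and lay 64 bp from the TSS of a processed pseudogene. The third, chr13:107890081-107890420 (18.4 ± 3.13), lay 17 bp from the 5′ end of Zswim6, and the sixth, chr17:47139781-47140100 (11.3 ± 3.01), 775 bp from that of Trerf1. GENCODE M21 types both genes as processed transcripts, while the RefSeq table for GRCm38.p6 types them as protein-coding. The fourth, chr15:68363341-68363520 (17.3 ± 5.75), lay 165 bp from the TSS of the lincRNA Gm20732.

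In all, 95 members (5.42%) lay within 1 kb of an annotated TSS. These were TSSs of lincRNAs for 40 members, of T cell receptor V genes for 14, of immunoglobulin V genes for 12 and of processed pseudogenes for 12. The other members had no TSS of any kind that near, and 1324 (75.6%) had none within 10 kb. Among members with no TSS within 1 kb and at least 90% unique words, the highest was chr9:116384321-116384520 between Tgfbr2 and Rbms3, with scores of 11.96 and 10.8 (11.4 ± 0.853, SD, n = 2). It was followed by chr5:64506241-64506460 near Tbc1d1 with 10.4 and 9.91, and chr3:50906041-50906260 near Noct with 11.7 and 8.23. The eighth, chr1:128832681-128832880, lay 240.5 kb from Cxcr4, the receptor that guides progenitors into and through the thymus, and scored 7.67 and 6.89. In these 4 regions the SD between the replicates was at most 2.47, at Noct.

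CTCF matches were frequent. A match to a 12-base CTCF consensus, on either strand, lay in 234 far intergenic regions (13.4%, 11.8 to 15.0%), against a background of 9.20% over all shared regions. In other intergenic regions the share was 15.6% and near TSSs 3.25%. Windows of the same width 2000 bp away that overlapped no peak held a match in 2 of 3359 cases (0.0595%). The match lay in a footprint of both replicates in 212 of the 234 regions (90.6%, 86.2 to 93.7%), against 97.6% (96.7 to 98.2%) of matches in other intergenic regions. It lay a median of 8 bp from the centre of the region, and 106 matches were on the plus and 128 on the minus strand.

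Members with a CTCF match scored higher in replicate 2 and those without scored higher in replicate 1. With a match the medians were 0.896 in replicate 1 and 1.26 in replicate 2, and 204 of 234 members (87.2%) were higher in replicate 2. Without a match they were 1.13 and 1.04, and 565 of 1518 (37.2%) were higher in replicate 2. On the log2 scale, replicate 2 minus replicate 1 had a median of 0.36 with and -0.16 without a match. Other intergenic regions differed in the same direction, by 0.26 with and -0.09 without a match, so the pattern was not confined to far intergenic sequence. The order of members with and without a match by score therefore differed between the 2 libraries.

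Short words of other factor families were searched on both strands, none of which contains another. Far intergenic regions exceeded the windows 2000 bp away for the ETS word CCGGAA (7.65% against 1.94%), the SP/KLF word GGGCGG (10.6% against 2.56%), the E-box (46.1% against 22.5%) and the RUNX word (26.5% against 17.6%). The TCF/LEF word CTTTGA was in 20.3% against 16.4%, and the AP-1 word TGANTCA in 8.62% against 7.47%, where the intervals of 7.39 to 10.0% and 6.63 to 8.41% overlap. The GATA words AGATAA and TGATAA (15.1% against 23.4%) and the NFY word CCAAT (22.4% against 32.2%) were rarer in the regions. The windows were not matched for GC content. Against other intergenic regions, far intergenic regions held the TCF/LEF word more often (20.3% against 16.6%) and the SP/KLF word less often (10.6% against 14.1%). For RUNX (26.5% against 24.0%) the intervals of 24.5 to 28.7% and 23.2 to 24.8% overlap. Over all shared regions the shares were 14.9% for TCF/LEF, 32.0% for SP/KLF, 20.9% for RUNX, 14.7% for ETS, 42.7% for the E-box, 11.2% for GATA, 6.36% for AP-1 and 25.6% for NFY.

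Far intergenic regions were thinly spread but grouped. Sequence that meets the rule covers 747 Mb, 28.2% of the assembled bases, and held 2.34 members per Mb, against 16.1 regions per Mb of other intergenic sequence. The density was highest on chromosome 13 with 4.56 per Mb and chromosome 12 with 4.04 per Mb, and lowest among the autosomes on chromosome 5 with 1.81 per Mb. The X chromosome held 0.943 per Mb and Y 0.0711 per Mb. Of the 2433 gaps over 200 kb between neighbouring protein-coding TSSs, 568 (23.3%) held a member and 1865 held none. The 31 gaps with 10 or more members held 473 members (27.0%). Gaps with a member were longer than those without, with medians of 545 and 352 kb. Of the 347 gaps over 1000 kb, 237 were empty, a smaller share than the 1865 of all 2433.

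A neighbour within 50 kb was found for 1184 members (67.6%, 65.4 to 69.7%) and within 5 kb for 547 (31.2%). Members were joined into a stretch where neighbouring centres were at most 50 kb apart. This gave 909 stretches: 568 solitary members, 154 pairs and 187 stretches of 3 or more, which held 876 members. In 77 stretches there were 5 or more. Scores went with grouping: solitary members had medians of 0.741 in replicate 1 and 0.872 in replicate 2, pairs 1.07 and 1.01, stretches of 3 or 4 members 1.37 and 1.26, and stretches of 5 or more 1.46 and 1.22. In both replicates grouped members were higher than solitary ones.

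Called densest here are the stretches with the most members, with ties ranked by shorter span. Some smaller stretches were packed more closely, such as 8 members in 34.4 kb between Rpl34 and Lef1. The densest by this ranking lay on chromosome 12 at chr12:107118441-107234298 and held 14 members in 116 kb. Their scores ran from 1.35 to 6.81 in replicate 1 (median 3.16) and from 0.833 to 3.87 in replicate 2 (median 1.71), so every member was above the far intergenic median in replicate 1. Its coding neighbours were Vrk1, a kinase gene 1088 kb away with promoter scores of 8.44 and 5.89, and 3110018I06Rik, 254 kb away, whose promoter was not accessible. The next accessible coding promoter on that side was that of Bcl11b, 769 kb away, which scored 10.6 and 6.55. This step past a closed neighbour is given for this stretch only and was chosen after its values were seen. A link between the stretch and any gene was not tested. Bcl11b is the zinc finger factor that commits progenitors to the T lineage, and in mice a distal enhancer region with a noncoding transcript is known far downstream of it. The stretch spans the lincRNA genes Gm16084, Gm16085 and Gm2800, and 7 further shared regions in this span lay within genes. The gap between Vrk1 and 3110018I06Rik held 34 members in all.

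On chromosome 3, a stretch of 11 members covered 131 kb from 101 kb beyond a TSS of Foxo1, the forkhead factor needed for naive T cell survival and homing, with medians of 1.84 and 1.23. Cog6, a Golgi complex gene, lay 494 kb away on the other side, and both promoters were accessible (Foxo1 9.58 and 5.57, Cog6 8.46 and 4.14). The gap between these genes held 24 members. Beside Tgfbr2, which encodes a receptor for transforming growth factor beta, 11 members covered 242 kb, with the highest at 11.96 and 10.8 and medians of 1.29 and 1.42. The promoter of Tgfbr2, 119 kb away, scored 6.57 and 4.73, while Rbms3 on the other side, an RNA-binding protein gene 287 kb away, had no accessible promoter.

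Tle3, a Groucho corepressor that RUNX and TCF/LEF factors recruit, had a dense stretch on each side. One, towards Uaca, held 10 members with medians of 1.68 and 1.19 and ended 120.4 kb from a Tle3 TSS. The other, towards the ribosomal protein gene Rplp1, held 9 with medians of 2.54 and 2.21 and began 260.0 kb from a Tle3 TSS. The Tle3 promoter scored 15.3 and 12.7. On chromosome 18, 9 members with medians of 2.13 and 1.54 lay 369 kb from Sall3, a developmental zinc finger gene, and 944 kb from the galanin receptor gene Galr1, and neither promoter was accessible. On chromosome 11, 9 members with medians of 1.45 and 0.912 lay 146 kb from Elac2, a tRNA-processing gene with promoter scores of 18.5 and 10.4, and 282 kb from F930015N05Rik, whose promoter was not accessible.

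The other 3 of the 10 densest stretches lay in arrays of antigen receptor V segments. Those on chromosome 12, with 11 members each, lay among the V segments of the immunoglobulin heavy chain (Igh) between Adam6a, a gene without an accessible promoter, and the zinc finger gene Zfp386 (14.8 and 15.9). Their medians were 1.22 and 1.51 in the stretch nearer Zfp386 and 0.778 and 0.966 in the other. The stretch on chromosome 14, with 10 members and medians of 1.44 and 1.66, lay among the V segments of the T cell receptor alpha and delta chains (Tra) between Olfr1507, an olfactory receptor gene, and Dad1, which encodes a subunit of the oligosaccharyltransferase. Repeated sequence was common there: the median share of unique words was 53.3%, 38.8% and 53.4% in these 3 stretches, against 100% in each of the other 7.

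**Figure D3:**
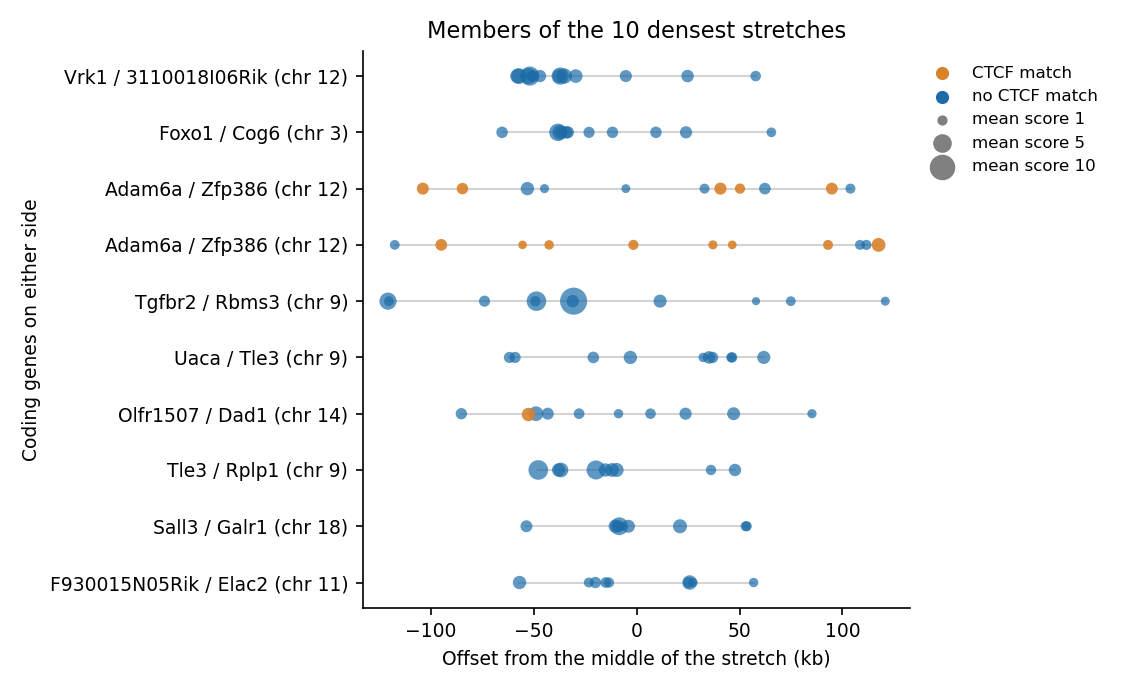
Members of the 10 densest stretches (those with the most members), plotted by offset in kb from the middle of each stretch. Row labels give the coding genes on either side. Point area grows with the mean score of both replicates, and orange points hold a CTCF match. In the 3 V segment stretches 14 of the 32 members are orange, but only 1 of 10 in the Tra stretch (Olfr1507 / Dad1). In the other 7 stretches 0 of the 73 members are orange.

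CTCF matches were unevenly spread over these stretches. They lay in 14 of the 32 members (43.8%) of the 3 stretches in V arrays. Most of these were in the Igh stretches, with 5 of 11 members nearer Zfp386 and 8 of 11 in the other. In the Tra stretch 1 of 10 members had a match. In the other 7 stretches matches lay in 0 of the 73 members, which allows a share of up to 4.11%. Only exact matches to the consensus were counted, so this limit holds for that word and does not cover variant CTCF sites. The V array of Igh held 41 members in 2.44 Mb, of which 22 (53.7%) had a match, and all 22 matches were on the minus strand, the strand of all annotated Igh V segments. The V array of Tra held 29 members, 5 with a match, all on the plus strand. The V arrays of the beta and gamma receptor chains held 1 member each, without a match, and those of the light chains Igk and Igl held none. These arrays span 0.667, 0.162, 3.15 and 0.176 Mb, in that order. How much of each array lies over 100 kb from a protein-coding TSS was not counted, so the numbers of members cannot be compared between arrays. Every one of the 72 members in V arrays had a footprint in both replicates, against 1587 of 1680 elsewhere. Of the Igh members 14, and of the Tra members 15, lay within 1 kb of the start of a V segment.

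Outside the V arrays the share of members with a CTCF match was lower in larger stretches. It was 19.1% (16.1 to 22.6%) of 559 solitary members, 13.3% of 300 in pairs, 8.71% of 356 in stretches of 3 or 4, 7.92% of 303 in stretches of 5 to 7 and 3.09% (1.33 to 7.02%) of 162 in stretches of 8 or more. With all members included, solitary members exceeded those in stretches of 3 or more at like scores in the lower 3 score quartiles (19.3% against 8.25%, 18.2% against 8.73% and 22.2% against 8.92%). In the highest quartile the order was the other way, with 2 of 17 solitary members against 16 of 73. RUNX words were in 27.3% of members in stretches of 3 or more and in 23.6% of solitary ones, and E-boxes in 50.9% and 40.7%. Outside the V arrays the E-box shares were 49.8% and 40.8%. The grouped members were wider, with a median of 220 bp against 200 bp, and these shares were not adjusted for width.

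The V arrays also set the share among the most distant members. Over 500 kb from a protein-coding TSS, 29 of 118 members (24.6%, 17.7 to 33.1%) had a CTCF match, but without the V arrays it was 8 of 69 (11.6%, 5.99 to 21.2%), against 12.7% at 100 to 200 kb without them. The ETS word was in 1 of these 118 members, against 7.96% of members at 100 to 200 kb.

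**Figure D4:**
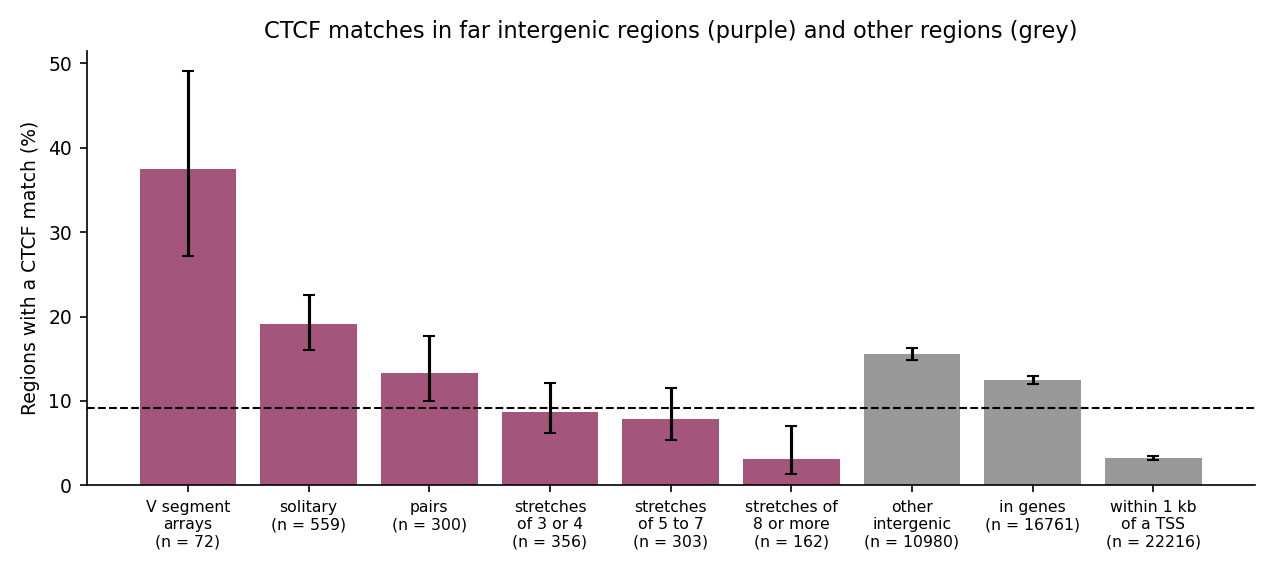
Share of regions with a CTCF match in percent, with 95% Wilson intervals. Purple bars are far intergenic regions in V segment arrays and, outside them, by size of stretch; grey bars are the other classes of shared region, and the dashed line is the share over all shared regions. Among far intergenic regions outside the V arrays the share runs from 19.1% when solitary to 3.09% in stretches of 8 or more.

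The protein-coding genes nearest to far intergenic regions were mostly accessible. The 1752 members had 712 different nearest genes, of which 365 were nearest to 1 member and 95 to 5 or more. A promoter was called accessible when a shared region lay within 1 kb of a TSS of the gene. This held for 506 of the 712 (71.1%, 67.6 to 74.3%), against a background of 58.9% of all protein-coding genes. The background is not limited to genes beside such territory: of 2197 genes that were the nearest to far intergenic sequence but to no member, 949 (43.2%, 41.1 to 45.3%) were accessible. Of the genes nearest to 3 or more members, 164 of 203 (80.8%) were accessible. The 77 stretches of 5 or more members had 124 different coding genes on either side, of which 96 (77.4%, 69.3 to 83.9%) were accessible. At least 1 of the coding genes on either side was accessible for 74 of the 77 stretches, and both were for 45. Some stretches share these genes, and no background was computed for a pair of genes.

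Zfp386 was nearest to the most members, 34, at 235 to 1119.8 kb. After it came 3110018I06Rik with 24, Sall3 with 20, Dad1 with 19, Foxo1 with 14, Tbl1xr1 with 13, Vrk1 with 12, and Cd83, Dyrk2 and Olfr1507 with 11 each. Of these 10 genes, 3110018I06Rik and Sall3 had no accessible promoter, and that of Olfr1507 scored 0.822 and 0.413. The others ran from 0.978 and 0.942 for Cd83, a surface protein of antigen-presenting and thymic cells, to 14.8 and 15.9 for Zfp386. Tbl1xr1, a subunit of the NCoR corepressor complex, scored 12.04 and 8.97, and its 13 members reached 7.99 and 6.31.

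T lineage transcription factors were often the nearest gene. This list, like those that follow, was chosen with earlier results of these data known. Its shares therefore describe the listed genes and are not independent support. Of the 25 genes listed, 10 were nearest to at least 1 member and 7 to 5 or more, against 3.25% and 0.433% of all protein-coding genes. Only 11 of the 25 were the nearest gene to any far intergenic sequence, so 10 of 11 had a member there (90.9%), against 712 of 2909 genes (24.5%). This background, also used for the lists below, is not matched for promoter accessibility. All 25 listed genes had accessible promoters, as did 1455 of the 2909 bordering genes, of which 506 had a member. Their 66 members lay near Foxo1 (14), Gata3 (9), Lef1 (8), Id2 (8), Runx1 (7), Ets1 (6), Tox (6), Satb1 (4), Bcl11b (3) and Ikzf2 (1). All 10 promoters were accessible, from 3.78 and 2.63 at Ikzf2, an Ikaros family factor, to 18.5 and 15.1 at Ets1. Members near Satb1, a chromatin organiser of thymocytes, had the highest median in replicate 1, 2.69, with 1.83 in replicate 2, and those near Ets1 had 2.43 and 2.40. Members near Gata3, the T helper and early T lineage factor, had 0.822 and 1.28 and reached out to 1119.3 kb. One of the 66 members, near Runx1, had a CTCF match.

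Of 30 receptor, survival and migration genes of T cells, 7 border such sequence and 5 of these were a nearest gene (71.4%, against 24.5% of all bordering genes). Cxcr4 had 6 members at 104 to 283 kb with medians of 1.91 and 2.17. Icos, a costimulatory receptor gene, had 5 with medians of 0.659 and 0.699 and a highest score of 5.56 and 6.05. Ptprc, the CD45 phosphatase, had 5 although no shared region lay within 1 kb of its TSSs. Bcl2 and S1pr1, a survival gene and the receptor for leaving the thymus, had 1 each, scoring 2.12 and 1.67 beside Bcl2 and 3.53 and 3.79 beside S1pr1. Of 14 progenitor factors and proto-oncogenes, 8 border such sequence and 5 of these were a nearest gene (62.5%, against 24.5% of all bordering genes), none to 5 or more members: Kit had 3, Myc, Mycn and Zeb2 had 2 each and Zeb1 had 1. The 2 members near Myc lay at 469.9 and 471 kb and scored up to 1.63 and 1.61.

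Genes known for neighbouring deserts in other tissues gave a mixed picture. Promoters were accessible for 7 of the 24 neuronal adhesion genes listed and for 7 of the 26 developmental transcription factor genes. Of 23 neuronal adhesion genes that border far intergenic sequence, 2 had a member (8.70%, against 24.5% of all bordering genes), Cntn5 with 2 and Pcdh7 with 1. Of 21 developmental transcription factor genes, 5 did (23.8%), close to that background: Sall3 with 20, Sox4 and Tshz1 with 2 each, and Irx5 and Sall1 with 1 each. Of these 5, Sox4, which acts in early T cells, and Tshz1 had accessible promoters. The lists of 15 genes each for other cells of the thymus had 3 bordering genes each, of which 1 was a nearest gene (33.3%), with 1 member: Cxcl12 of the thymic epithelial list, whose member scored 4.07 and 3.25 beside a promoter that was not accessible, and Ebf1 of the list for B cells, dendritic cells and macrophages, whose member scored 0.496 and 0.371.

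**Figure D5:**
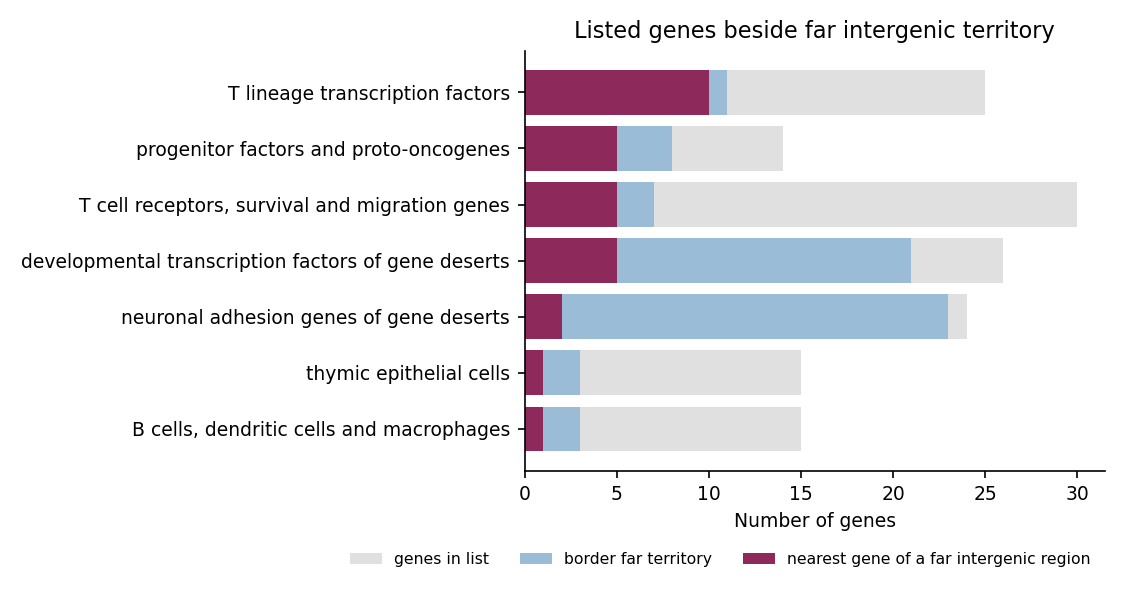
Number of genes in each of 7 lists (grey), of those that are the nearest protein-coding gene to far intergenic sequence (blue) and of those nearest to at least 1 far intergenic region (purple). The purple bar reaches 10 of 11 bordering genes for T lineage transcription factors and 2 of 23 for neuronal adhesion genes. Promoters were accessible for all 25 genes of the former list and for 7 of 24 of the latter. The lists were chosen with earlier results of these data known.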

How the data were processed

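The authors deposited, per sample, 2 peak lists with a signal score per peak, a footprint list and false discovery rate tracks, all on mm10 per the labels. Of these, the strict peak lists (63832 peaks in replicate 1 and 67929 in replicate 2), the looser lists (91754 and 100264) and the footprint lists (291716 and 295617) were used. The deposited footprints carry a constant p-value column of 0.01 and served only as positions. The aligner, peak caller, footprint tool and handling of reads from CAST/EiJ alleles were not given in the sources used here, and the effect of that handling was not tested. The sequencing depth is unknown. Deposited scores were whole multiples of 1 step (100% of strict peaks, tolerance 0.05 steps), and a median far intergenic region held 149 steps in replicate 1 and 176 in replicate 2.

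Overlapping entries of a list were joined (62230 and 66839 peaks), keeping the highest score, and peaks overlapping by at least 1 bp between replicates were merged into shared regions. Genes and TSSs came from GENCODE M21, on the 19 autosomes, X and Y, and sequence from GRCm38.p6. A TSS is the start of any transcript of a gene typed protein-coding. Values ± are SD over the 2 replicates. Shares carry 95% Wilson intervals, which cover counting error only, and for a count of 0 the limit of 3 counts is printed. A word was unique when its 31 bases occurred once in the assembly. Genes bordering far intergenic sequence were found on a grid of 1 kb.

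Genes and regions were named by rule: the coding genes on either side of the 10 densest stretches, the 10 genes nearest to most members, list members nearest to a far intergenic region, and the regions with extreme score, width, footprint number or distance. Bcl11b was also named beside the densest stretch, Zswim6 and Trerf1 for their gene types, and the highest members with unique sequence, after their values were seen. The members and gene lists were chosen with earlier results of these data known. Alternatives changed the overlap, peak list, distance limit, TSS set, gene set, repeated sequence, replicates, footprint overlap, neighbour distance, stretch gap and promoter window. The steps were checked on simulated data. Tools were pandas 2.3.3, numpy 2.4.6, matplotlib 3.10.9 and scipy 1.17.1, under Python 3.11.15.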

Additional observations from a re-analysis of the deposited data

How the results depend on the processing

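Of 115 values under alternatives, 68 kept within 1.5 times a count, within the interval of a share or within the SD between the replicates of a median. The share of nearest genes with an accessible promoter stayed between 68.0 and 73.6% throughout. Values that moved are as follows. With 50% reciprocal overlap the median of the mean score (1.08 as reported) was 1.15 and the share with a neighbour within 50 kb 63.6%. With the looser lists there were 2884 regions (4.10% of shared regions), median score 0.718, width 219.5 bp, a footprint in both replicates in 79.0%, a CTCF match in 10.5%, a neighbour in 73.5% and 30 members in the densest stretch. With the 50000 highest peaks there were 1025 (2.48%), median score 1.64, width 220.0 bp and footprints in 97.9%. A limit of 50 kb gave 3670 regions (7.10%), score 1.17 and a neighbour for 73.0%, and one of 200 kb 735 (1.42%) and score 1.05. With the 5′ end of a gene as its only TSS the share was 4.06% and the score 1.12. With only protein-coding genes counted as genes, the share was 4.80%, score 1.11, width 215 bp, CTCF 11.5%, neighbours 74.9% and the densest stretch, then in the Tra V array, 39. Leaving out either replicate gave shares of 3.60 to 3.70%, scores of 0.833 to 0.933, widths of 180 to 184 bp, footprints in both in 75.9 to 79.1%, CTCF in 10.2 to 12.5%, neighbours for 71.3 to 74.3% and densest stretches of 25 to 38. The neighbour share was 50.1% at 20 kb and 76.4% at 100 kb, and a gap of 100 kb gave a densest stretch of 34. Chosen after seeing the data, leaving out regions within 1 kb of any TSS gave a share of 3.21%, and leaving out the V arrays moved none of the 9 results. The stretch towards Bcl11b was the densest in either replicate alone and with the looser lists; it was not with 50% reciprocal overlap, a 50 kb limit or protein-coding genes only. No paired analysis was possible because there is 1 group. The causes were not tested. The depth is unknown, so what it limits could not be given.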
